A study of Mus musculus with 19 samples.

Results

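Muscle cells hold small, fast reserves that cover energy demand before new ATP is made, and 9 mouse genes of these reserves were followed here through the formation of muscle fibres in culture: Ckm, Ckb and Ckmt2 (creatine kinases), Gamt (creatine synthesis), Slc6a8 (creatine uptake), Ak1 (adenylate kinase), Ampd1 and Ampd3 (AMP deaminases) and Mb (myoglobin). They were chosen by name as a group of related function, by a rule that sets no threshold on a measured value. Earlier results of these data were known when they were chosen, so counts and medians over the 9 support no direction. All 9 were found among the 35598 genes of the count tables, and all 9 were among the 15123 genes with enough counts to be tested.

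The libraries came from primary myoblasts of mouse hind limb, at 24 h in growth medium (dividing myoblasts), at 48 h (differentiated myotubes) and at 72 h (fused myotubes). Cells labelled wild type (WT) gave 3, 3 and 4 libraries at these times, and cells labelled Glud1KO (called KO-labelled below) gave 3, 2 and 4. Glud1 encodes the mitochondrial glutamate dehydrogenase, and the series title places the study in muscle stem cell fate. The replicates are labelled biological, but the labels do not say whether they are animals or cultures, how Glud1 was removed or whether a Cre driver or treatment was used, so the p-values measure only the spread between these libraries.

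Creatine kinases move a phosphate between phosphocreatine and ADP, and so rebuild ATP on the spot. Ckm and Ckb encode the cytosolic muscle and brain forms, and Ckmt2 the form of striated muscle mitochondria. Adenylate kinase joins 2 ADP into ATP and AMP, AMP deaminase then removes the AMP as IMP, and myoglobin binds oxygen inside the fibre. In developing muscle the creatine kinase in use is known to pass from the brain form to the muscle form.

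Libraries held 16168131 to 30742634 estimated counts, and the common biological coefficient of variation over the genes tested was 4.03%. All 7 myogenic markers examined were present at every stage (summed level of 1780 to 9770 CPM, counts relative to the scaled library size), while summed markers of endothelial, fibroblast, leukocyte, glial, fat and erythroid cells stayed at or below 3.93 CPM. The list for smooth muscle and pericytes summed to 33.4 to 181 CPM, nearly all of it Rgs5 in myoblasts and Abcc9 in myotubes. Summed Glud1 counts overlapped between labels at every stage, with KO-labelled over WT at -0.02 ± 0.039 (log2 ± SE, edgeR adjusted p 0.849) in myoblasts, -0.09 ± 0.047 (edgeR adjusted p 0.193) at 48 h and -0.02 ± 0.036 (edgeR adjusted p 0.748) in fused myotubes. With an offset for effective transcript length it was -0.26, -0.31 and -0.34 (highest edgeR adjusted p 0.000708). The deposited TPM, which uses such lengths, was apart at each stage, from 163 to 175 (WT) and from 136 to 142 (KO-labelled) in myoblasts, 79.5 to 86.2 and 58.9 to 64.5 at 48 h, and 101 to 106 and 75.7 to 82.6 in fused myotubes. File names mark libraries as KO or KOT where the labels say WT or Glud1KO, so every direction below rests on the labels.

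Sequence just upstream of the gene starts is shown for the 3 creatine kinases, whose shares of their family changed with stage, and for the pair of Ak1 start sites that traded places. The stretches are from RefSeq on GRCm38.p6, written 5′ to 3′ on the gene's strand and ending before the first annotated transcribed base. Capitals mark E-boxes (CANNTG, the letters that MyoD family factors bind) and, in Ckb, a MEF2 core (CTA and TAG with 4 bases between them). None overlaps an annotated exon. The Ckm stretch is chr7:19410844-19411024 on the plus strand, inside an intron of the non-coding transcript Ckm-202, and leaves out the 69 bases nearest the RefSeq start, where 2 other transcripts already begin. The Ckb stretch is chr12:111672339-111672588 and the Ckmt2 stretch chr13:91876886-91877135, both on the minus strand. The stretch before the Ak1-202 start is chr2:32625187-32625436 and that before the Ak1-201 start is chr2:32629250-32629499, both on the plus strand, with the first in an intron of Ak1-203 and the other in introns of Ak1-202, Ak1-203, Ak1-205 and Ak1-206.
Ckm: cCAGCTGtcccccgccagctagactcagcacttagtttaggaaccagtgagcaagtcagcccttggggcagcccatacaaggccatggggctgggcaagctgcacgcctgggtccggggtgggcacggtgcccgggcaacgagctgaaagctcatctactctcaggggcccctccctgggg
Ckb: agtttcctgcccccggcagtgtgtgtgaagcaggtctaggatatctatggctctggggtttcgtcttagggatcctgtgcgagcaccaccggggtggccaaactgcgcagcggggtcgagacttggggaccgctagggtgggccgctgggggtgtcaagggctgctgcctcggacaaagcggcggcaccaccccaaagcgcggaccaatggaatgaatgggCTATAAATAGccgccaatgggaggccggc
Ckmt2: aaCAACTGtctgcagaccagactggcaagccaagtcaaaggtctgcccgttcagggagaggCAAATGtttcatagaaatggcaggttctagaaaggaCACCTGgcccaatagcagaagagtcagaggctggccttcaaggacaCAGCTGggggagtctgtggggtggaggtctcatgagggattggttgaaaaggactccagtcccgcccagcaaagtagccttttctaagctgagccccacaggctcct
Ak1-202: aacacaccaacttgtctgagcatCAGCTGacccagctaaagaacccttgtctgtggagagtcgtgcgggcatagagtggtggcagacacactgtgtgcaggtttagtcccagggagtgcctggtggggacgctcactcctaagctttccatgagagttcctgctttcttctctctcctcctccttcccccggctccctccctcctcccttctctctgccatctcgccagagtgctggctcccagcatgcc
Ak1-201: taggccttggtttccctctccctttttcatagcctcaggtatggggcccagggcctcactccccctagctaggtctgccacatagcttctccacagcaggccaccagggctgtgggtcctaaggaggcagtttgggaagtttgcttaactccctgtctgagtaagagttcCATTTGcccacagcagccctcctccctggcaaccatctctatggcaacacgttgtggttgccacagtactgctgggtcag

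On either strand, the 250 bases before the RefSeq start of Ckm held 1 E-box, with the letters CAGCTG, at its far end. Those of Ckmt2 held 4 E-boxes, 1 of them CAGCTG. Those of Ckb held no E-box and 1 MEF2 core, 29 bases before the start, within which the letters TATAAA also lie. The window of the Ak1-202 start held 1 E-box, a CAGCTG, and that of Ak1-201 held 1 E-box with other letters. Among 32851 promoters of that length, 66.2% held an E-box, 13% a CAGCTG (a subset of the E-boxes), 3.2% the MEF2 core and 4.51% the MCAT letters CATTCCT, which none of these windows held. Gamt held none of the 4 motifs, and Ampd3 held up to 3 E-boxes before its starts. A match is a description of letters and not of binding.

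Between each pair of stages edgeR called all 9 genes in both labels, with the small changes of Slc6a8 and Ampd3 depending on the scaling as given with them. From WT myoblasts to differentiated myotubes 8 rose and Ampd3 fell, where 85.0% of all genes tested were called (42.4% higher, 42.6% lower). From differentiated to fused WT myotubes 7 rose while Ckb and Slc6a8 fell (75.1% of all genes called, 37.4% higher and 37.7% lower). From myoblasts to fused myotubes 8 rose and Slc6a8 fell (85.5% of all genes called, 42.2% higher and 43.4% lower). In KO-labelled cells the counts were the same, 8 higher and 1 lower, 7 and 2, and 8 and 1, beside 83.7% (41.3% higher, 42.5% lower), 70.2% (35.8% higher, 34.4% lower) and 87.2% (42.7% higher, 44.5% lower) of all genes called. Being called was thus common to most genes. Ckmt2 and Ampd1, at 4 to 22 and 6 to 12 counts in myoblasts, passed the filter on low counts only through the later stages and so had to rise from myoblasts. Among the other 7 genes, 6 rose and Ampd3 fell to 48 h, and 6 rose and Slc6a8 fell to 72 h. The median log2 change of the 9 from 48 to 72 h in WT was 1.5, against -0.011 over all genes tested, whose median absolute change was 0.533. The 9 were chosen with earlier results of these data known, so this contrast supports no direction. Since the tests compare shares of a library, fewer cells of a type and less RNA per cell cannot be told apart.

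**Figure D1:**
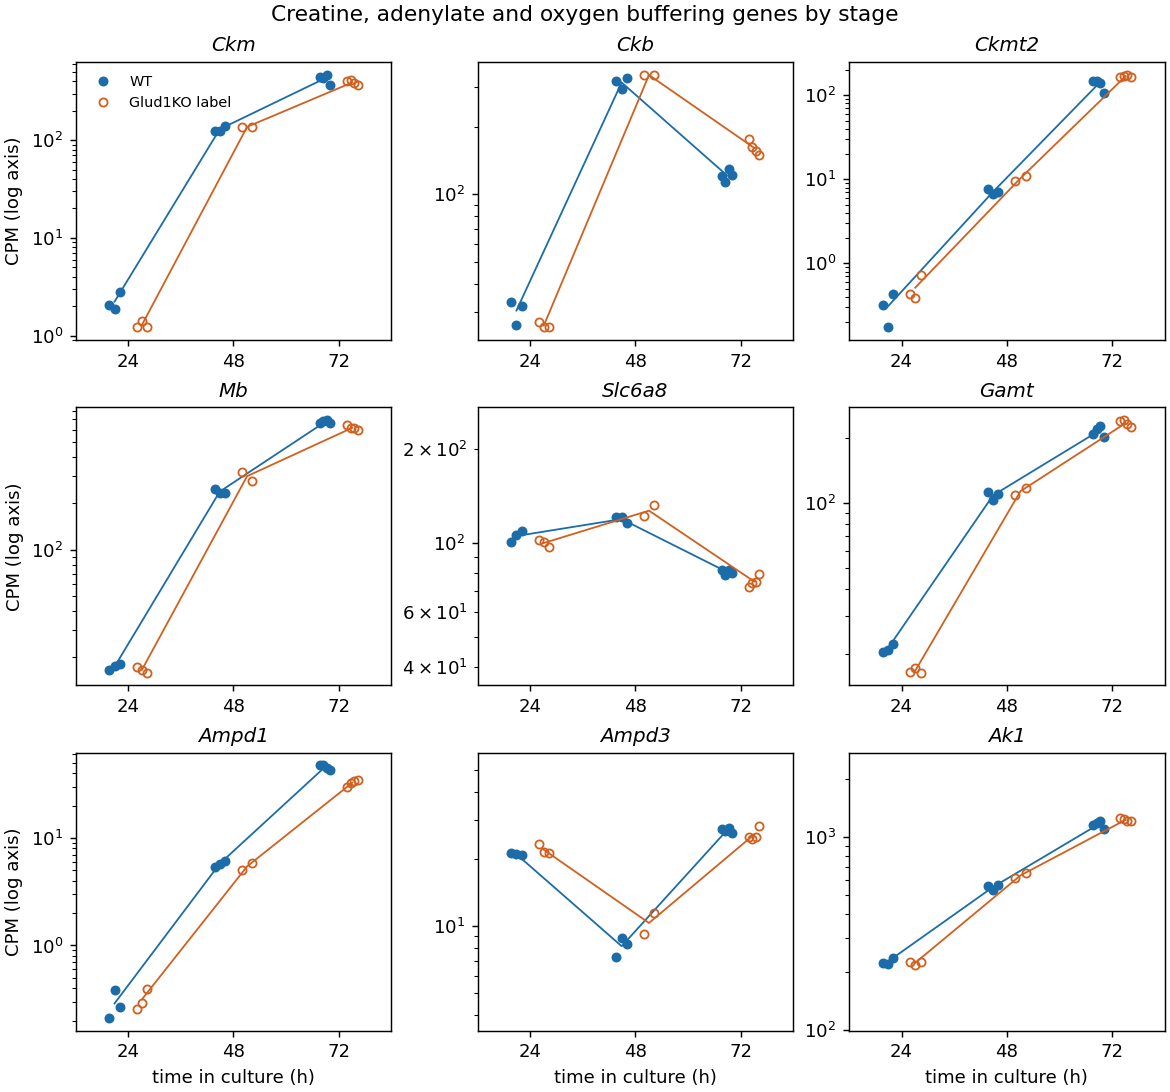
CPM of each of the 9 genes (log axis) against time in hours. Each point is 1 library, filled for WT and open for KO-labelled, and lines join the means. Ckm, Ckmt2, Mb, Gamt, Ampd1 and Ak1 climb through both steps, Ckb peaks at 48 h, and Ampd3 dips at 48 h.

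The creatine kinases changed places. Ckm (ENSMUSG00000030399.2, chromosome 7, 19404776 to 19422841, plus strand) encodes the muscle form. It was at 2.04, 1.86 and 2.77 CPM in WT myoblasts, at 125, 123 and 141 CPM in WT differentiated myotubes, and at 442, 437, 468 and 371 CPM in WT fused myotubes. In KO-labelled libraries it was at 1.23, 1.41 and 1.21 CPM, then 138 and 136 CPM, then 400, 409, 381 and 371 CPM. No stage overlapped another, and the WT rise was 57.4-fold to 48 h (log2 5.84 ± 0.11, edgeR adjusted p 3.16e-26) and 3.31-fold from there (log2 1.73 ± 0.061, edgeR adjusted p 3.08e-19).

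Ckb (ENSMUSG00000001270.9, chromosome 12, 111669361 to 111672338, minus strand), the brain form, had a peak in place of a climb. It was at 33.2, 26.3 and 31.8 CPM in WT myoblasts, at 320, 293 and 329 CPM at 48 h, and at 121, 113, 130 and 122 CPM in fused myotubes. KO-labelled libraries gave 27.1, 25.6 and 25.6 CPM, then 340 and 338 CPM, then 177, 162, 155 and 149 CPM. In WT it rose 10.3-fold (log2 3.36 ± 0.068, edgeR adjusted p 1.77e-25) and then fell by 1.37 ± 0.056 on the log2 scale (edgeR adjusted p 5.49e-18), staying 3.97-fold above myoblasts.

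Ckmt2 (ENSMUSG00000021622.3, chromosome 13, 91853387 to 91876885, minus strand) is the mitochondrial form. In WT myoblasts it was at 0.316, 0.173 and 0.434 CPM, which were 4 to 13 counts, and it passed the filter on low counts only through the later stages. At 48 h it was at 7.59, 6.7 and 7.11 CPM, and in fused myotubes at 150, 147, 142 and 107 CPM. The step from 48 to 72 h was 19.1-fold (log2 4.25 ± 0.10, edgeR adjusted p 1.2e-22). The size of the earlier rise rests on the few counts in myoblasts and is not set against it. KO-labelled libraries were at 0.43, 0.393 and 0.72 CPM, then 9.52 and 11.1 CPM, then 165, 171, 176 and 166 CPM.

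Compared per transcript length, as shares of the summed TPM (the deposited level corrected for transcript length) of the 4 creatine kinases, the family passed from 1 gene to another. Ckb held 87.2% ± 1.89 (SD, n = 3) in WT myoblasts, 59.2% ± 1.62 (SD, n = 3) at 48 h and 12.5% ± 1.32 (SD, n = 4) in fused myotubes. Ckm held 11.1% ± 1.5, 39.3% ± 1.72 and 71.5% ± 0.603 over the same stages. Ckmt2 held 1.0% ± 0.343, 1.57% ± 0.115 and 16.1% ± 1.23. The fourth gene, Ckmt1, the form of other tissues' mitochondria, held the small remainder. Although Ckb RNA rose 10.3-fold to 48 h, its share of the family fell, as Ckm rose 57.4-fold. As a share of estimated counts, with no correction for length, Ckm held 6.72%, 28.8% and 62.4% in WT, in the same order.

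The end point of this change differed by label. In KO-labelled fused myotubes Ckm held 63.8% ± 0.772 (SD, n = 4), with every library between 63.1% and 64.9%, below the WT range of 70.9% to 72.2%. Ckb held 16.2% ± 0.919 against a WT range of 11.2% to 14.3%, and Ckmt2 held 19.9% ± 0.768 against a WT range of 14.6% to 17.2%, with no overlap in either. At 48 h the Ckm shares were 38.9% ± 0.802 (SD, n = 2) in KO-labelled and 39.3% in WT libraries, and the ranges overlapped. In myoblasts Ckm held 7.16% ± 1.2 (SD, n = 3) of the family in KO-labelled cells (6.0% to 8.4%, against 9.81% to 12.7% in WT), at the low counts given above. These shares are a description with no test.

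**Figure D2:**
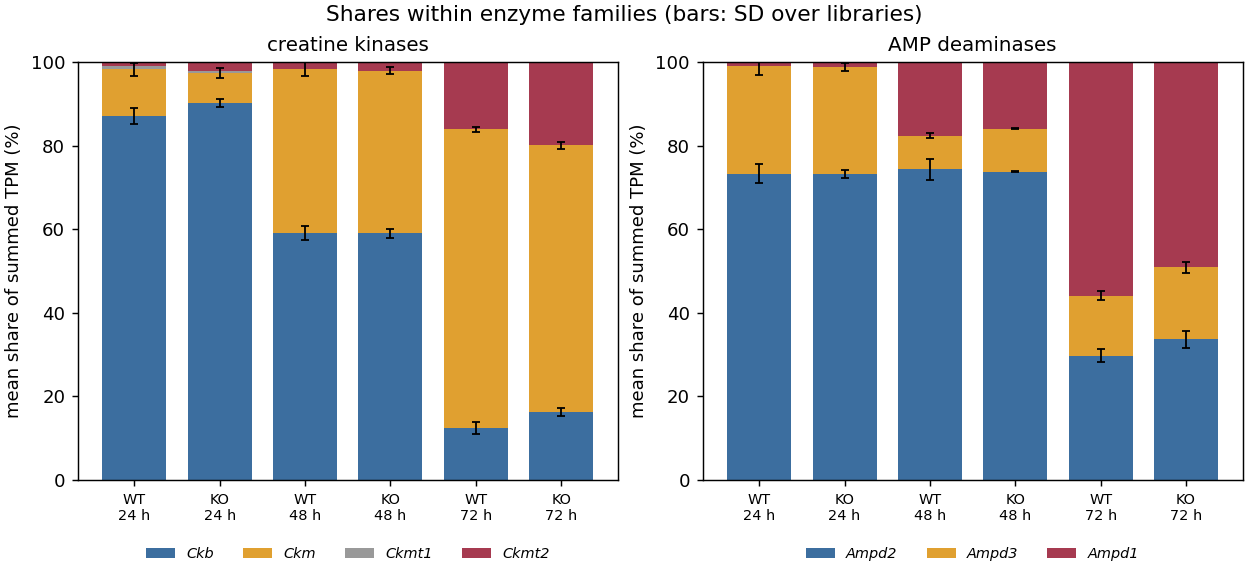
Mean share of the summed TPM held by each creatine kinase (left) and AMP deaminase (right) in WT and KO-labelled (KO) groups at 24, 48 and 72 h, in percent. Each error bar is the SD of the segment below it over libraries; Ckb shrinks from 87.2% to 12.5% in WT while Ckm grows to 71.5%, and Ampd1 grows to 55.9%.

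Creatine reaches the cell by synthesis or by uptake. Gamt (ENSMUSG00000020150.13, chromosome 10, 80258151 to 80261012, minus strand) encodes the enzyme that methylates guanidinoacetate to creatine. It was at 20.4, 20.9 and 22.2 CPM in WT myoblasts, at 113, 103 and 110 CPM at 48 h, and at 209, 221, 229 and 203 CPM in fused myotubes. KO-labelled libraries were at 16.5, 17.2 and 16.3 CPM, then 109 and 118 CPM, then 240, 243, 233 and 225 CPM. The WT rises were 5.13-fold (log2 2.36 ± 0.055, edgeR adjusted p 3.49e-24) and 1.98-fold (log2 0.99 ± 0.044, edgeR adjusted p 3.29e-17).

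Gatm, not one of the 9, encodes the enzyme that makes guanidinoacetate, the step before Gamt. Its level was 85.5 ± 1.09 CPM (SD, n = 3) in WT myoblasts, 521 ± 9.74 CPM (SD, n = 3) at 48 h and 152 ± 6.24 CPM (SD, n = 4) in fused myotubes. It rose by 2.61 ± 0.039 on the log2 scale and then fell by 1.78 ± 0.035 (edgeR adjusted p 2.55e-28 and 1.11e-24). The 2 enzymes of creatine synthesis thus rose together to 48 h and moved in opposite directions after it, Gatm with Ckb and Gamt with Ckm.

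Slc6a8 (ENSMUSG00000019558.14, chromosome X, 73673150 to 73682502, plus strand) encodes the creatine transporter of the plasma membrane, and of the 9 genes it varied least. It was at 101, 106 and 109 CPM in WT myoblasts, at 121, 121 and 116 CPM at 48 h, and at 82.2, 78.9, 82 and 80.3 CPM in fused myotubes. KO-labelled libraries gave 102, 101 and 97.1 CPM, then 122 and 132 CPM, then 72.1, 74.6, 75.1 and 79.3 CPM. The WT rise to 48 h was small (log2 0.18 ± 0.040, edgeR adjusted p 0.000216) and had the other sign, -0.07, when libraries were scaled by size only. In KO-labelled cells the same scaling took the rise to 0.04 (edgeR adjusted p 0.443). The fall to fused myotubes was 0.56 ± 0.039 on the log2 scale (edgeR adjusted p 5.45e-13). Fused myotubes were the only stage below myoblasts, in every library of both labels.

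Of the 7 genes on a fixed list for the creatine pathway (Gatm, Ckmt1 and 5 of the 9 genes), Ckmt1 did not pass the filter. In WT, 6 of the 6 tested rose to 48 h, beside 42.4% of all genes called higher, and 1 of them, Ckmt2, had to rise because it passed the filter only through the later stages. From there to 72 h 3 rose and 3 fell, beside 37.4% higher and 37.7% lower. The list was drawn up with earlier results of these data known, so its counts support no direction.

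Adenylate kinase 1 is the main cytosolic adenylate kinase of muscle. Ak1 (ENSMUSG00000026817.14, chromosome 2, 32621758 to 32635058, plus strand) was already high in WT myoblasts, at 223, 221 and 237 CPM. It was at 563, 533 and 564 CPM in WT differentiated myotubes and at 1160, 1190, 1210 and 1110 CPM in WT fused myotubes. KO-labelled libraries gave 227, 217 and 227 CPM, then 615 and 655 CPM, then 1260, 1250, 1220 and 1210 CPM. It rose 2.44-fold (log2 1.28 ± 0.043, edgeR adjusted p 1.55e-20) and then 2.11-fold (log2 1.08 ± 0.040, edgeR adjusted p 7.24e-19) in WT. Its share of the summed TPM of 9 adenylate kinases grew from 36.6% in WT myoblasts to 65.6% and 79.9%, and in KO-labelled cells the last share was 81.4%.

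The moderate rise of the gene as a whole covered a change of start site. Ak1-201, which starts at position 32629504, held 61.0%, 70.0% and 72.9% of the Ak1 estimated counts in the 3 WT myoblast libraries, and 2.05% to 4.43% in WT fused myotubes. Ak1-202, which starts upstream at 32625437, went from 28.8%, 20.1% and 15.9% to 87.1% to 90.1%. At 48 h Ak1-202 was already at 73.0%, 78.3% and 79.8%, and Ak1-203, from the start farthest upstream, stayed between 2.31% and 5.68% in every WT library. In WT the start sites thus exchanged places between 24 and 48 h.

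Relative to the scaled library size, Ak1-201 went from 155 ± 18.1 CPM (SD, n = 3) in WT myoblasts to 40.6 ± 12.2 CPM (SD, n = 4) in fused myotubes. Ak1-202 went from 48.9 ± 13.9 to 1040 ± 51.5 CPM over the same stages. KO-labelled libraries had 64.1% to 69.3% of the counts on Ak1-201 in myoblasts and 83.8% to 88.9% on Ak1-202 in fused myotubes. The Ak1-202 shares at 48 h were 83.0% and 80.4%, above the WT range, and at the other stages the labels overlapped. The 2 transcripts share most of their sequence, so these shares depend on how the authors' estimation split the reads. On the TPM scale the Ak1-202 share was lower, 14.5%, 57.1% and 62.9% over the WT stages.

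**Figure D3:**
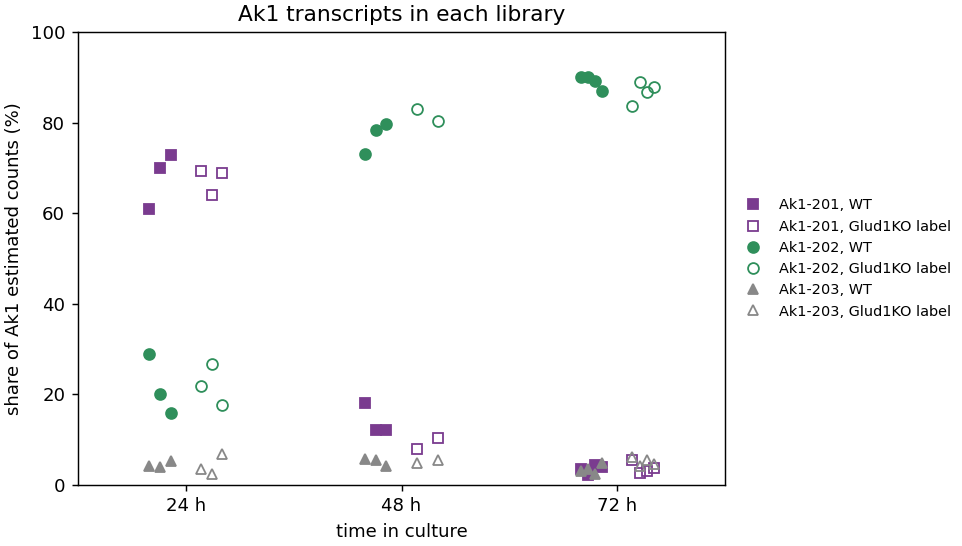
Share of the Ak1 estimated counts assigned to each of 3 transcripts in every library, in percent, by time; filled symbols are WT and open symbols KO-labelled. Ak1-201 holds 61.0% to 72.9% in WT myoblasts and at most 4.43% in WT fused myotubes, where Ak1-202 holds at least 87.1%.

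AMP deaminases remove the AMP that adenylate kinase makes, and Ampd1 is their muscle form. Ampd1 (ENSMUSG00000070385.12, chromosome 3, 103074014 to 103099720, plus strand) was at 0.211, 0.389 and 0.267 CPM in WT myoblasts, or 6 to 9 counts, and passed the filter through the later stages. It was at 5.41, 5.75 and 6.16 CPM in WT differentiated myotubes and at 47.5, 47.5, 45.1 and 43.4 CPM in WT fused myotubes. KO-labelled libraries gave 0.258, 0.294 and 0.393 CPM, then 5.08 and 5.82 CPM, then 30, 32.3, 33.7 and 35 CPM. The labels overlapped at the first 2 stages and were apart at the last. From 48 to 72 h in WT it rose by 2.98 ± 0.073 on the log2 scale (edgeR adjusted p 9.43e-23). The size of its earlier rise rests on the 6 to 9 counts in myoblasts.

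Ampd3 (ENSMUSG00000005686.17, chromosome 7, 110768206 to 110812405, plus strand), the form first described in red blood cells, moved the other way to 48 h. It was at 21.2, 21 and 20.8 CPM in WT myoblasts, at 7.26, 8.84 and 8.27 CPM at 48 h, and at 27.2, 26.6, 27.6 and 26.1 CPM in fused myotubes. KO-labelled libraries gave 23.3, 21.5 and 21.2 CPM, then 9.25 and 11.4 CPM, then 25.2, 24.7, 25.2 and 28 CPM. In WT it fell by 1.37 ± 0.075 on the log2 scale (edgeR adjusted p 1.38e-15) and rose by 1.72 ± 0.072 (edgeR adjusted p 8.76e-18). Rnf141, at up to 45.4 CPM on the opposite strand, overlaps the end of Ampd3, and no source used here says if strand was used in counting. The net gain from myoblasts to fused myotubes, 0.35 ± 0.060 in WT (edgeR adjusted p 6.11e-06) and 0.22 ± 0.060 in KO-labelled cells (edgeR adjusted p 0.00118), was lost when libraries were scaled by size only, where the KO-labelled value turned to -0.10 (edgeR adjusted p 0.129).

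Of the summed TPM of the 3 AMP deaminases, Ampd1 held 0.99% ± 0.307 (SD, n = 3) in WT myoblasts, 17.6% ± 2.07 (SD, n = 3) at 48 h and 55.9% ± 2.28 (SD, n = 4) in fused myotubes. KO-labelled fused myotubes had 49.2% ± 3.02 (SD, n = 4). Ampd2, the form of most other tissues, held 73.3%, 74.4% and 29.7% in WT. By TPM Ampd1 was thus the largest of the 3 in fused myotubes. By estimated counts, with no correction for length, Ampd2 stayed the largest there, at 39.8% against 38.0% for Ampd1 in WT and 42.1% against 32.4% in KO-labelled cells.

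Adenylosuccinate synthase, which turns IMP back towards AMP and so closes the purine nucleotide cycle with the deaminase, also has a muscle form, Adssl1, and a general form, Adss. Adssl1 rose from 16.2 ± 0.235 CPM (SD, n = 3) in WT myoblasts to 111 ± 0.943 CPM at 48 h and 229 ± 11.3 CPM in fused myotubes. Adss went from 145 ± 6.55 CPM to 14.7 ± 0.671 and 4.94 ± 0.528 CPM. The log2 changes in WT were 2.77 ± 0.049 and 1.05 ± 0.037 for Adssl1, and -3.30 ± 0.058 and -1.59 ± 0.088 for Adss (highest edgeR adjusted p 4.29e-15). Adssl1 held 12% of the pair's TPM in WT myoblasts and 89.6% at 48 h, so this exchange was nearly complete when Ampd1 still held 17.6% of its family.

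Myoglobin stores oxygen and eases its way to the mitochondria. Mb (ENSMUSG00000018893.15, chromosome 15, 77015487 to 77050670, minus strand) was at 16.5, 17.7 and 18 CPM in WT myoblasts, at 248, 235 and 232 CPM at 48 h, and at 661, 679, 694 and 662 CPM in fused myotubes. KO-labelled libraries gave 17.4, 16.5 and 15.9 CPM, then 320 and 280 CPM, then 640, 618, 614 and 601 CPM. The WT rise was 13.7-fold (log2 3.77 ± 0.056, edgeR adjusted p 1.54e-28) and then 2.83-fold (log2 1.5 ± 0.043, edgeR adjusted p 2.63e-21). The part of Mb near its upstream starts overlaps Apol6 on the other strand, which did not exceed a group mean of 9.79 CPM.

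Of 7 globins listed, 2 passed the filter, Mb and Cygb. The erythroid list summed to at most 0.218 CPM in any library.

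Per transcript length the order of the 9 genes changed with stage. In WT myoblasts Ak1 led at 229 ± 7.92 TPM (SD, n = 3), Slc6a8 followed at 54.6 ± 0.651, and Mb (36.9 ± 2.73), Gamt (34.4 ± 1.63) and Ckb (32.5 ± 3.39) overlapped. Then came Ampd3 at 9.80 and Ckm at 4.17 TPM, while Ckmt2 (0.383) and Ampd1 (0.379) did not differ beyond their spread. At 48 h Ak1 (457 ± 14.5) and Mb (443 ± 17.2) overlapped at the head, followed by Ckb (303 ± 17.7), Ckm (201 ± 16.5) and Gamt (159 ± 6.98).

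In WT fused myotubes Mb led at 1150 ± 28.8 TPM (SD, n = 4), above Ak1 at 935 ± 37.1 and Ckm at 628 ± 63.6. Gamt was at 291 ± 13.8 TPM, Ckmt2 (142 ± 22.6) and Ckb (109 ± 6.25) overlapped, and Ampd1 (38.0 ± 2.00) lay above Slc6a8 (31.4 ± 2.25). In KO-labelled fused myotubes Mb (1010 ± 20.9) and Ak1 (1010 ± 34.3) overlapped, as did Slc6a8 (29.4 ± 2.61) and Ampd1 (27.9 ± 2.43). Ampd3 was last in both labels, at 9.81 and 9.74 TPM. The transporter thus went from the next to highest place in myoblasts to the next to lowest in WT fused myotubes, as its own level fell from 54.6 to 31.4 TPM and other genes rose past it.

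The genes whose levels followed each of the 9 most closely over the 6 groups were ranked by the root mean square difference of log2 CPM, each gene centred on its own mean, among 9613 candidates. They are a description over 6 groups that share their libraries' scaling. Nearest to Ckm were Ppp1r3a, a glycogen-targeting subunit of protein phosphatase 1, Myh1, the fast myosin heavy chain IIx, and Scn4a, the muscle sodium channel (differences of 0.17, 0.23 and 0.30). Nearest to Ckmt2 were Myh2, the myosin heavy chain IIa, Mybpc2, the fast myosin-binding protein C, and Hhatl (0.32, 0.34 and 0.43). In WT and KO-labelled myoblasts Mybpc2 was at 0.0523 and 0.0396 CPM and Hhatl at 0.0941 and 0.116 CPM. These levels are near the 0.05 CPM added before logs were taken, so the distances of these genes depend on that addition. Nearest to Ampd1 were Art1, Mlip and Myoz1 (0.28, 0.28 and 0.29). Nearest to Mb were Popdc2, Afap1l1 and Itm2a (0.15, 0.18 and 0.18).

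The peak of Ckb at 48 h was shared most closely by Porcn, P2ry10b and Ddc (0.12, 0.13 and 0.14), none a contractile gene. The dip of Ampd3 was shared by Nqo2, Abi2 and the hexokinase Hk1 (0.11, 0.12 and 0.13), where Hk1 itself was at 355, 159 and 418 CPM over the WT stages. Gamt was closest to Atp1b1, Wfs1 and Gramd1b (0.06, 0.09 and 0.10). Ak1 was closest to Mettl22, Akr1b10 and Insyn1 (0.05, 0.05 and 0.06), and Slc6a8 to Nfrkb, Gpatch2 and Itga5 (0.03, 0.03 and 0.04).

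Between labels, in myoblasts 2 of the 9 genes were called, both lower in KO-labelled libraries, beside 11.6% of all genes called (4.86% higher, 6.69% lower), and the median of the 9 was -0.07 against 0.014 over all genes. Gamt was the firmer one: its KO-labelled range of 16.3 to 17.2 CPM lay below the WT range of 20.4 to 22.2 CPM (log2 -0.35 ± 0.064, edgeR adjusted p 0.000485). Ckm was lower by 1.76-fold (log2 -0.81 ± 0.23, edgeR adjusted p 0.0228) at a level of 37 to 83 counts, and without WT myoblasts replicate 3, the highest library, it was at -0.61 (edgeR adjusted p 0.187). Its adjusted p was 0.0715 without either KO-labelled replicate 1 or 3. Ckb was at -0.23 ± 0.076 (edgeR adjusted p 0.0527), and its groups overlapped. It was called in 9 of 15 alternatives, from -0.31 to -0.16 with an edgeR adjusted p from 0.00288 to 0.247, and 1 of the 9 was the fit without WT replicate 2 (-0.31, edgeR adjusted p 0.00708).

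Gatm and Adssl1 were also lower in KO-labelled myoblasts, at 73.7 ± 2.95 against 85.5 ± 1.09 CPM and at 12.7 ± 0.152 against 16.2 ± 0.235 CPM (log2 -0.21 ± 0.040 and -0.35 ± 0.060, edgeR adjusted p 0.000591 and 0.000172, n = 3 each). Of the 6 creatine pathway genes tested, Ckm (with the lost calls just given), Gatm and Gamt were called lower and 0 higher, beside 6.69% and 4.86% of all genes, on a list that supports no direction. Of 8 stage markers, 3 were called, all lower and all markers of differentiation, beside 11.6% of all genes called: Myog -0.63 ± 0.071, Mymk -0.45 ± 0.065 and Myh3 -0.92 ± 0.067 (highest edgeR adjusted p 2.14e-05), while Pax7, Mki67, Myod1, Myf5 and Mymx were not called. Myh3 was at 117 ± 4.18 CPM in KO-labelled and 221 ± 11.8 CPM in WT myoblasts, against 16100 CPM in WT differentiated myotubes. The part of these marker differences in the lower Ckm and Gamt was not tested.

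**Figure D4:**
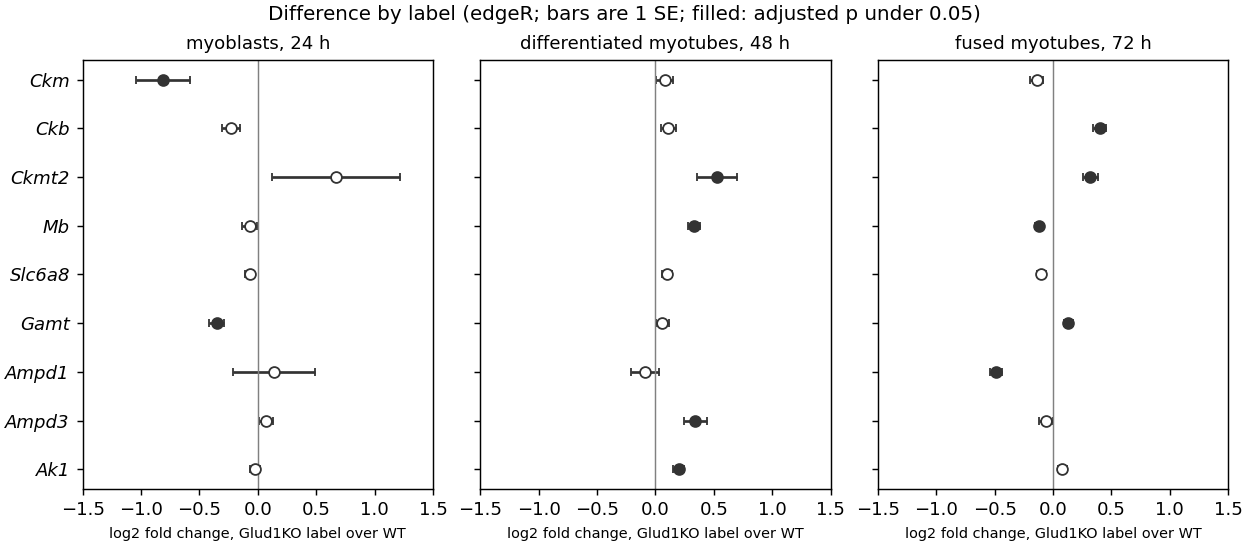
Log2 fold change of KO-labelled over WT libraries for the 9 genes at each stage, with 1 SE; filled points have an edgeR adjusted p under 0.05. Filled points number 2, 4 and 5 from left to right, lower ones at 24 h, higher ones at 48 h and both directions at 72 h.

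In differentiated myotubes 4 of the 9 genes were called, all higher in KO-labelled libraries, beside 25.2% of all genes called (11% higher, 14.1% lower), with a median of 0.11 against -0.012 over all genes. Mb was at 320 and 280 CPM against 232 to 248 CPM in WT (log2 0.33 ± 0.049, edgeR adjusted p 1.16e-05). Ak1 was at 615 and 655 CPM against 533 to 564 CPM (log2 0.20 ± 0.047, edgeR adjusted p 0.00208). Ampd3 was at 9.25 and 11.4 CPM against 7.26 to 8.84 CPM (log2 0.34 ± 0.099, edgeR adjusted p 0.0114), and Ckmt2 at 9.52 and 11.1 CPM against 6.7 to 7.59 CPM (log2 0.53 ± 0.17, edgeR adjusted p 0.0228).

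Of these, Mb was called under every alternative. The other 3 lost their calls without 1 of the 2 KO-labelled libraries: without replicate 2 Ak1 was at 0.15 (edgeR adjusted p 0.0733), Ampd3 at 0.18 (edgeR adjusted p 0.353) and Ckmt2 at 0.42 (edgeR adjusted p 0.231). Ckmt2 was also lost without WT replicate 2 or 3 (edgeR adjusted p 0.061 and 0.0536), and Ampd3 with only the libraries compared (0.34, edgeR adjusted p 0.0595) or with the effective-length offset, which corrects counts for each library's transcript lengths (0.38, edgeR adjusted p 0.121). Ckm (0.08 ± 0.074), Ckb (0.11 ± 0.064), Gamt (0.06 ± 0.053), Slc6a8 (0.10 ± 0.045) and Ampd1 (-0.09 ± 0.12) were not called by edgeR. Slc6a8 was called with the length and GC trend removed (0.18, edgeR adjusted p 0.0011).

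Of the 8 stage markers, 6 were called at 48 h, beside 25.2% of all genes. The fusion genes Mymx (113 ± 7.74 against 71.2 ± 1.20 CPM, log2 0.67 ± 0.070) and Mymk (log2 0.27 ± 0.061) were higher in KO-labelled libraries. The dividing-cell marker Mki67 (0.792 ± 0.288 against 4.65 ± 0.503 CPM, log2 -2.55 ± 0.27) and the stem cell factor Pax7 (5.63 ± 0.781 against 10.6 ± 0.579 CPM, log2 -0.92 ± 0.14) were lower (highest edgeR adjusted p of the 4, 0.00129), as were Myod1 (log2 -0.31 ± 0.056) and Myf5 (log2 -0.19 ± 0.057; edgeR adjusted p 0.000155 and 0.0122). Without KO-labelled replicate 2, the edgeR adjusted p of Mymk was 0.0714. Myog and Myh3, which mark differentiation and were called in myoblasts, were both at -0.01 here (edgeR adjusted p 0.951 and 0.909). The part of the called markers in the higher Mb and Ak1 was not tested.

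In fused myotubes 5 of the 9 genes were called, 3 higher and 2 lower in KO-labelled libraries, beside 13% of all genes called (6.32% higher, 6.72% lower), with a median of -0.06 against -0.006. Ampd1 differed most: every KO-labelled library, from 30 to 35 CPM, lay below every WT library, from 43.4 to 47.5 CPM (1.40-fold, log2 -0.49 ± 0.053, edgeR adjusted p 2.9e-07). Ckb was higher, from 149 to 177 CPM against 113 to 130 CPM (1.32-fold, log2 0.40 ± 0.054, edgeR adjusted p 7.5e-06). Ckmt2 was higher, from 165 to 176 CPM against 107 to 150 CPM (log2 0.32 ± 0.066, edgeR adjusted p 0.00145). WT replicate 4 was the lowest WT library for Ckm, Ckmt2, Gamt, Ampd1, Ampd3 and Ak1; without it Ckm went from -0.14 ± 0.053 (edgeR adjusted p 0.0919) to -0.20 (edgeR adjusted p 0.00333). Ampd1, Ckb and Ckmt2 stayed called without any single library, Ckmt2 with a value of at least 0.21.

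Mb was slightly lower (601 to 640 against 661 to 694 CPM, log2 -0.12 ± 0.037, edgeR adjusted p 0.0264) and Gamt slightly higher (225 to 243 against 203 to 229 CPM, overlapping, log2 0.13 ± 0.039, edgeR adjusted p 0.0309). Each lost its call without any 1 of 5 libraries: Mb without WT replicate 2 or 3 or KO-labelled replicate 2, 3 or 4, at an edgeR adjusted p from 0.0546 to 0.0773, and Gamt without WT replicate 1 or 4 or KO-labelled replicate 1, 2 or 3, at one from 0.0552 to 0.128. With the effective-length offset they were at -0.16 and 0.12 (edgeR adjusted p 0.0893 and 0.129). Slc6a8 (-0.10 ± 0.038), Ampd3 (-0.06 ± 0.057) and Ak1 (0.08 ± 0.036) were not called by edgeR. Slc6a8 was called without KO-labelled replicate 4 (-0.13, edgeR adjusted p 0.0339), and Ak1 with the length and GC trend removed (0.08, edgeR adjusted p 0.0378). Of 8 stage markers 1 was called at this stage, beside 13% of all genes, Myf5 at -0.31 ± 0.040 (edgeR adjusted p 3.18e-06). Ampd2 was also lower in KO-labelled fused myotubes (42.6 ± 2.19 against 48.1 ± 2.55 CPM, log2 -0.18 ± 0.050, edgeR adjusted p 0.0189), a call lost without WT replicate 1 or KO-labelled replicate 1 or 2. With the same offset it was at -0.06 (edgeR adjusted p 0.76).

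Whether the label's effect itself changed between stages was tested with interaction terms. From 24 to 48 h, 5 of the 9 genes were called, all moving up in KO-labelled relative to WT cells, beside 19.1% of all genes called (7.78% higher, 11.3% lower): Ckm 0.89 ± 0.25, Gamt 0.41 ± 0.083, Mb 0.40 ± 0.082, Ckb 0.34 ± 0.10 and Ak1 0.22 ± 0.063 (highest edgeR adjusted p 0.0169). Slc6a8 was at 0.17 (edgeR adjusted p 0.0526) and was called in 7 of 20 alternatives, with an edgeR adjusted p from 0.00571 to 0.464. From 48 to 72 h, 5 were called, beside 14.8% of all genes called (8.27% higher, 6.53% lower): Mb at -0.46 ± 0.062 (edgeR adjusted p 8.38e-06), Ampd1 and Ampd3 at -0.40, Slc6a8 at -0.20 and Ckb at 0.29. From 24 to 72 h, 2 were called, beside 10.3% of all genes called (5.75% higher, 4.55% lower): Ckb at 0.63 ± 0.093 (edgeR adjusted p 4.67e-05) and Gamt at 0.47 ± 0.075 (edgeR adjusted p 0.000103). Ckm was not called, at 0.68 ± 0.24 (edgeR adjusted p 0.0731) here and -0.21 ± 0.091 (edgeR adjusted p 0.117) from 48 to 72 h. It was called in 5 of 23 and in 5 of 22 alternatives. Calls for Mb and Gamt, and that of Ckb from 24 to 72 h, held without any single library. From 24 to 48 h, that of Ckm was lost without WT myoblast replicate 3 (0.69, edgeR adjusted p 0.0905), that of Ckb without WT myoblast replicate 1 or 3 (0.28 and 0.31, edgeR adjusted p 0.0704 and 0.0537) and that of Ak1 without KO-labelled 48 h replicate 2 (0.17, edgeR adjusted p 0.121). From 48 to 72 h, the calls of Slc6a8, Ampd3, Ampd1 and Ckb were lost without KO-labelled 48 h replicate 2 (-0.14, -0.24, -0.29 and 0.29, edgeR adjusted p 0.202, 0.276, 0.305 and 0.0703). Those of Slc6a8 and Ckb were also lost without WT 48 h replicate 3 (edgeR adjusted p 0.0571 and 0.0543), that of Ckb without KO-labelled 48 h replicate 1 (edgeR adjusted p 0.065), and that of Ampd1 without any 1 of 7 other libraries: WT 48 h replicates 1 and 2, WT fused replicates 1 and 2, KO-labelled 48 h replicate 1 and KO-labelled fused replicates 1 and 2 (edgeR adjusted p 0.0523 to 0.0831). With the effective-length offset Slc6a8 was at -0.08, Ampd1 at -0.30, Ampd3 at -0.36 and Ckb at 0.29 (edgeR adjusted p 0.652, 0.408, 0.296 and 0.096), and none of the 4 was called. Scaling by library size only or using no filter also ended the calls of Slc6a8 and Ampd1, as did fitting only the libraries compared for Ampd1. From 24 to 48 h, the call of Ckb was lost with the offset (0.32, edgeR adjusted p 0.0791) and that of Ak1 with library size only (0.16, edgeR adjusted p 0.0521). These comparisons share libraries with each other and with those above, so their values are not independent.

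The lower Gamt of KO-labelled myoblasts was called in all 15 alternatives run, whereas its higher value in fused myotubes lost its call in 6 of 17. The higher Mb at 48 h was called in all 14 alternatives run, and its lower value at 72 h lost its call in 6 of 17. The climb of Mb was steeper at first and flatter after it: 18.0-fold then 2.06-fold in KO-labelled cells, against 13.7-fold then 2.83-fold in WT. Ckb rose 13-fold and fell back 2.11-fold in KO-labelled cells, against 10.3-fold and 2.58-fold in WT. Ampd1 rose 6.0-fold from 48 to 72 h in KO-labelled cells and 7.90-fold in WT.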

How the data were processed

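Gene expression was measured by Illumina TruSeq mRNA sequencing in 19 libraries of 6 groups, per the labels' protocols. The submitters' processing notes name bcl2fastq 2.20, fastp 0.20.0, kallisto 0.46.1, edgeR 3.36 and build GRCm38.p6, without a role or order. The authors deposited a table for each library, which gives estimated counts and TPM of 121843 transcripts, per the file headers. Of these, 121018 matched GENCODE M21, and the other 825 (0.255% to 0.507% of counts) were left out.

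Estimated counts were summed per gene and rounded to whole numbers, and TPM was summed per gene for comparisons between genes. edgeR 4.0.16 (R 4.3.3) tested 15123 genes that passed filterByExpr, in 1 quasi-likelihood model of all 6 groups with TMM scaling (factors of 0.914 to 1.16). P-values were adjusted by Benjamini-Hochberg over those genes and called under 0.05. CPM uses the scaled library sizes. The model was run on simulated counts that gave every gene the same spread. The only condition set was on the size of the changes put in, so this does not support the p-values. Within a stage, deviations of same-numbered WT and KO-labelled libraries from their group means correlated between -0.061 and 0.021. Groups are small, which constrains these values, and pairing of replicate numbers between stages was not examined. Alternatives were DESeq2 1.42.0 (size factors and test), scaling by library size only, other filters, only the libraries compared, a replicate block, an effective-length offset, a length and GC trend removed, and leaving out each library.

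The members and lists were chosen with earlier results of these data known. Genes outside the 9 named with values were members of those lists with at least 10 CPM in some group, or each member's 3 nearest. The nearest were ranked by level among genes of at least 10 CPM in some group. List genes below that level, such as Ckmt1, Cygb, Nt5e and Epas1, were named without values. Glud1, cell type markers and the overlapping genes Rnf141 and Apol6 were named outside this rule. Promoter sequence came from RefSeq for 7 of the 9 genes; Slc6a8 and Ampd1 had no entry in that table. Labels, not file names, set the groups.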

Additional observations from a re-analysis of the deposited data

Results flagged for a closer look

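In a group of 4 libraries, 1 value stood apart from the others. Ampd3 in KO-labelled fused myotubes was at 28.0 CPM in replicate 4 and at 24.7 to 25.2 CPM in the other 3, a gap of 0.857 of the group's range and above Dixon's critical value for 4 values. Chance marks about 1 in 20 groups, and 18 were examined.

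The difference between labels itself changed between stages for 12 values of the 9 genes, by edgeR interaction terms (log2 ± SE). From 24 to 48 h it moved up for Ckm by 0.89 ± 0.246 (edgeR adjusted p 0.0106), for Gamt by 0.41 ± 0.083 (edgeR adjusted p 0.000799), for Mb by 0.40 ± 0.082 (edgeR adjusted p 0.000861), for Ckb by 0.34 ± 0.10 (edgeR adjusted p 0.0169) and for Ak1 by 0.22 ± 0.063 (edgeR adjusted p 0.0143). From 48 to 72 h it was -0.46 ± 0.062 for Mb (edgeR adjusted p 8.38e-06), -0.40 ± 0.131 for Ampd1 (edgeR adjusted p 0.0419), -0.40 ± 0.114 for Ampd3 (edgeR adjusted p 0.0169), -0.20 ± 0.059 for Slc6a8 (edgeR adjusted p 0.023) and 0.29 ± 0.084 for Ckb (edgeR adjusted p 0.0199). From 24 to 72 h it was 0.63 ± 0.093 for Ckb (edgeR adjusted p 4.67e-05) and 0.47 ± 0.075 for Gamt (edgeR adjusted p 0.000103). Of all genes tested, 19.1%, 14.8% and 10.3% were called for the changes from 24 to 48, 48 to 72 and 24 to 72 h. Among the 12, only the calls of Mb, of Gamt, and of Ckb from 24 to 72 h held in every alternative run.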

How the results depend on the processing

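Of 108 values for the 9 genes (9 genes in 12 comparisons), each run under 14 to 23 alternatives including single-library omissions, 81 kept their call (and, where called, their direction) in all those run, and 27 did not in at least 1. Values that were not called could change sign near 0. The number of the 9 genes called, leaving out each library in turn, ranged from 1 to 3 in myoblasts, 1 to 4 at 48 h, 3 to 5 in fused myotubes, and 3 to 7, 1 to 6 and 2 to 3 for the label's change from 24 to 48, 48 to 72 and 24 to 72 h. With the effective-length offset it was 3 in fused myotubes and 1 for the change from 48 to 72 h, and with library size only it was 3 for the latter. Scaling by library size only turned Slc6a8 from 24 to 48 h in WT to -0.07 and Ampd3 from 24 to 72 h in KO-labelled cells to -0.10; it moved the median of all genes to -0.23 and -0.33 (WT) and -0.31 and -0.35 (KO-labelled) for 48 and 72 h against 24 h. Glud1 between labels was called with the offset (-0.26, -0.31 and -0.34) and, at 48 h, with library size only (-0.14). The cause was not tested. In estimated counts in place of TPM, over the 3 stages, Ckm held 6.72%, 28.8% and 62.4% of its family in WT and 4.58%, 28.1% and 54.1% in KO-labelled cells, Ckb 92.1%, 69.7% and 17.8%, and 93.1%, 69.7% and 22.3%, Ampd1 0.38%, 9.04% and 38.0%, and 0.411%, 7.83% and 32.4%, and Ak1 43.8%, 75% and 84.7%, and 42.2%, 76.9% and 85.8%. Ckmt2 held 19.8% and 23.6% in fused myotubes. In TPM, Ak1-201 held 46.3% (WT) and 46.6% (KO-labelled) in myoblasts and 6.76% in KO-labelled cells at 48 h, and Ak1-202 14.5%, 57.1% and 62.9% in WT and 15.0%, 59.8% and 59.1% in KO-labelled cells. These shares moved by construction, since TPM divides by length. The replicate block changed 4 of the 108 calls, all gained: Ckb in myoblasts (-0.22, edgeR adjusted p 0.0328), Ckm in fused myotubes (-0.13, edgeR adjusted p 0.041) and 2 changes of Ckm's label difference. The labels do not say that replicate numbers pair libraries. Over all genes, calls between labels fell with the offset from 1747 to 589, 3810 to 2150 and 1972 to 822, and for the changes between stages from 2890 to 1456, 2238 to 980 and 1557 to 667; they were 2625 in myoblasts with only the libraries compared, 925, 1144 and 1067 without WT myoblast replicate 3, KO-labelled replicate 1 or KO-labelled replicate 3, and 3446 for 48 to 72 h with the length and GC trend removed. The share of calls that were higher was 42.1% in myoblasts (29.3% with DESeq2 size factors, 27.5% by DESeq2, 57.7% with length and GC trend removed, 19.2% with the offset), 43.9% at 48 h (27% with library size only, 69.9% with length and GC trend removed) and 48.5% at 72 h (58.9% with the latter). Counts of 4 to 22 for Ckmt2 and 6 to 12 for Ampd1 limit what can be seen of them in myoblasts.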

Other observations

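A list of 14 genes took in enzymes that salvage purines or break down nucleotides, and Impdh1, Impdh2 and Gmps, which make guanine nucleotides from IMP. Of these, 13 were tested, and from 24 to 48 h in WT 11 fell and 2 rose (Nt5c2, a cytosolic nucleotidase, and Impdh1), beside 42.4% of all genes called higher and 42.6% lower, with a median log2 change of -1.5. From 48 to 72 h 9 rose and 2 fell, beside 37.4% higher and 37.7% lower, with a median of 0.24. Over both steps, from 24 to 72 h, 10 were lower and 2 higher (median -1.30), beside 43.4% of all genes lower and 42.2% higher. Pnp, the purine nucleoside phosphorylase, was at 32.3 ± 0.397 CPM (SD, n = 3) and then at 2.63 ± 0.31 CPM, which is on the log2 scale -3.63 ± 0.11 (edgeR adjusted p 8.74e-22). In myoblasts 4 of the 13 were called between labels, beside 11.6% of all genes: Adk (log2 0.14 ± 0.045, edgeR adjusted p 0.0387), Hprt and Dck were higher and Nt5e was lower in KO-labelled libraries. At 48 h Pnp was lower in KO-labelled libraries (0.955 ± 0.313 CPM, n = 2; log2 -1.45 ± 0.25, edgeR adjusted p 9.03e-05), as was Adk, the adenosine kinase (12.1 ± 0.77 against 16.4 ± 0.925 CPM; log2 -0.43 ± 0.074, edgeR adjusted p 7.39e-05), whose call was lost with the effective-length offset (-0.29, edgeR adjusted p 0.0859). Impdh1 was higher (114 ± 10.3 against 102 ± 5.18 CPM, overlapping; log2 0.16 ± 0.052, edgeR adjusted p 0.0251). These 3 of 13 stand beside 25.2% of all genes called. In fused myotubes edgeR called 0 of the 13 between labels, beside 13% of all genes called, and 1 (Adk) had an unadjusted p under 0.05.

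AMP-activated kinase senses the AMP that adenylate kinase makes, and has 7 subunit genes. From 24 to 48 h in WT, Prkaa2, Prkab2 and Prkag3 rose and Prkaa1, Prkab1, Prkag1 and Prkag2 fell, beside 42.4% of all genes higher and 42.6% lower. From 48 to 72 h 5 rose (Prkaa1, Prkaa2, Prkab2, Prkag1 and Prkag2) and 0 fell, beside 37.4% and 37.7%. From 24 to 72 h 6 were higher and 1, Prkab1, was lower, beside 42.2% and 43.4%. Prkag3, the gamma subunit of fast muscle, went from 3.31 ± 0.145 to 247 ± 20.2 CPM (log2 6.22 ± 0.071, edgeR adjusted p 2.44e-30). At 48 h it was at 372 ± 5.52 CPM in KO-labelled libraries (n = 2; log2 0.59 ± 0.049, edgeR adjusted p 7.14e-10). Prkaa1 was called lower at that stage, so 2 of 7 were called, beside 25.2% of all genes. In fused myotubes 3 of 7 were called, beside 13% of all genes, and Prkag3, 1 of them, lost its call in 8 alternatives. Prkab2 was lower in KO-labelled libraries (87.4 ± 3.28 against 105 ± 3.57 CPM; log2 -0.27 ± 0.034, edgeR adjusted p 2.68e-06) and Prkaa1 higher (148 ± 4.71 against 130 ± 3.77 CPM; log2 0.19 ± 0.033, edgeR adjusted p 0.000273). Of 8 oxygen-sensing genes, 2 were higher (Hif1an and Egln2) and 2 lower (Hif1a and Epas1) in KO-labelled libraries at 48 h, beside 25.2% of all genes called. Hif1an, which hydroxylates HIF, was higher (430 ± 7.95 against 317 ± 11.4 CPM; log2 0.44 ± 0.04, edgeR adjusted p 4.78e-09) and Hif1a lower (57.8 ± 1.28 against 75.7 ± 2.62 CPM; log2 -0.39 ± 0.05, edgeR adjusted p 1.31e-06). The stage markers given for 48 h moved with these, and their part was not tested. The mitochondrial adenylate kinase Ak4 was lower in KO-labelled fused myotubes (7.44 ± 1.1 against 11.9 ± 1.4 CPM; log2 -0.65 ± 0.1, edgeR adjusted p 5.5e-05).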
